A study of Gallus gallus with 13 samples.

Results

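The 4 genes described here are PITX1, PITX3, TBX4 and TBX5, which encode a pair of homeodomain factors of the PITX family and the T-box factors that mark the hindlimb and the forelimb. They were chosen by symbol from an RNA table of 16737 chicken genes, with earlier results of these data known. Where Ensembl listed several transcripts of a gene, the one with the highest mean level over the libraries was used. The 4 genes have 9 transcripts in the table. All 4 had at least 5 RPKM (reads scaled to transcript length and to the library's total) in every RNA library, so no member was lost to the filter on low values.

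The RNA came from chicken micromass cultures, dense droplets of limb bud mesenchyme taken from HH24 embryos and grown for 9 days, a model in which limb mesenchyme forms cartilage. Every culture received an RCASBP(A) virus, an avian retrovirus, before plating. The viruses carried mHoxd13(wt), mHoxd13(Q317K), mHoxd13(Q317R) or cPITX1(wt), each with a 3xFLAG tag, and the control virus, RCASBP(A)-empty, carried no factor. HOXD13 is the HOX factor of the distal limb, and Q317K and Q317R replace a glutamine of its homeodomain with a lysine or an arginine. The viral long terminal repeats drive the insert in any infected cell, which is the limit of these cultures as a model of cells that express a factor at their own level. The labels do not say whether forelimb or hindlimb buds were used, nor how many embryos went into a culture. Each of the 5 groups had 1 RNA library, so no difference below has a replicate check and no p-value is given. Intervals in brackets are 95% exact (Clopper-Pearson) intervals on read numbers and cover counting error only.

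PITX1 is made in the hindlimb field and not in the forelimb field, and in mouse and chicken it acts upstream of TBX4, the T-box gene of the hindlimb. TBX5 is the T-box gene of the forelimb, where it is needed for the start of the bud through FGF10, and human TBX5 mutations cause Holt-Oram syndrome with defects of the arm and heart. PITX factors have a lysine in the recognition helix of the homeodomain, as bicoid does, and HOX factors have a glutamine there. PITX3 is best known from the lens and from dopamine neurons of the midbrain.

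Library totals worked out from the RPKM values lay between 14069766 reads (Q317K) and 16793118 reads (Q317R). The limb mesenchyme markers PRRX1 and PRRX2 were present in all 5 libraries, at 63.6 to 84.6 RPKM and 103 to 146 RPKM, and neither was 2-fold apart in any comparison. TWIST1 and MSX1, the other 2 markers of that list, were not found in the table under their symbols, so their levels are unknown. The cartilage markers, 6 of which were in the table, differed widely between libraries. Their summed level was 5097 RPKM in HOXD13 wt, 2382 RPKM in Q317K, 13533 RPKM in Q317R, 4094 RPKM in PITX1 and 18023 RPKM in the empty vector.

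TBX5 was lower in all 4 libraries with a factor than in the empty vector, and lowest with Q317K. Its level per length was 17.6 RPKM with HOXD13 wt, 10.8 RPKM with Q317K, 19.3 RPKM with Q317R, 16.2 RPKM with PITX1 and 49.4 RPKM with the empty vector (gene ENSGALG00000008253, transcript ENSGALT00000013434). These levels rest on 570, 330, 702 and 568 reads in the factor libraries, in the same order, and on 1639 reads in the empty vector library. The empty vector library stood above the others, the libraries of Q317R, HOXD13 wt and PITX1 lay close together, and Q317K stood below them. TBX5 was 2.81-fold lower with HOXD13 wt than with the empty vector (2.55 to 3.10), a log2 ratio of RPKM + 1 of -1.44. With Q317K it was 4.57-fold lower than with the empty vector (4.06 to 5.16), a log2 ratio of -2.10. With Q317R it was 2.57-fold lower (2.35 to 2.81), and with PITX1 3.04-fold lower (2.77 to 3.35), against the same empty vector library. All 4 comparisons share that library, so its level enters each of them. In bulk RNA, fewer cells that express a gene and less of its RNA per cell cannot be told apart.

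The other TBX5 transcripts in the table gave the same direction. ENSGALT00000037998 was 2.64-fold lower with HOXD13 wt, 5.19-fold lower with Q317K, 2.68-fold lower with Q317R and 3.07-fold lower with PITX1 than with the empty vector. ENSGALT00000037999 was 2.94-fold, 5.97-fold, 2.90-fold and 3.29-fold lower in those libraries, in that order. Transcripts of 1 gene share exons, so these are not independent measurements. Among all genes tested, TBX5 was near the lower end in each comparison with the empty vector: 0.896% of genes had a lower ratio with HOXD13 wt, 0.480% with Q317K, 1.01% with Q317R and 0.772% with PITX1. In the empty vector library 90.9% of genes in the table had a lower RPKM than TBX5, and in Q317K 53.2% did.

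**Figure D1:**
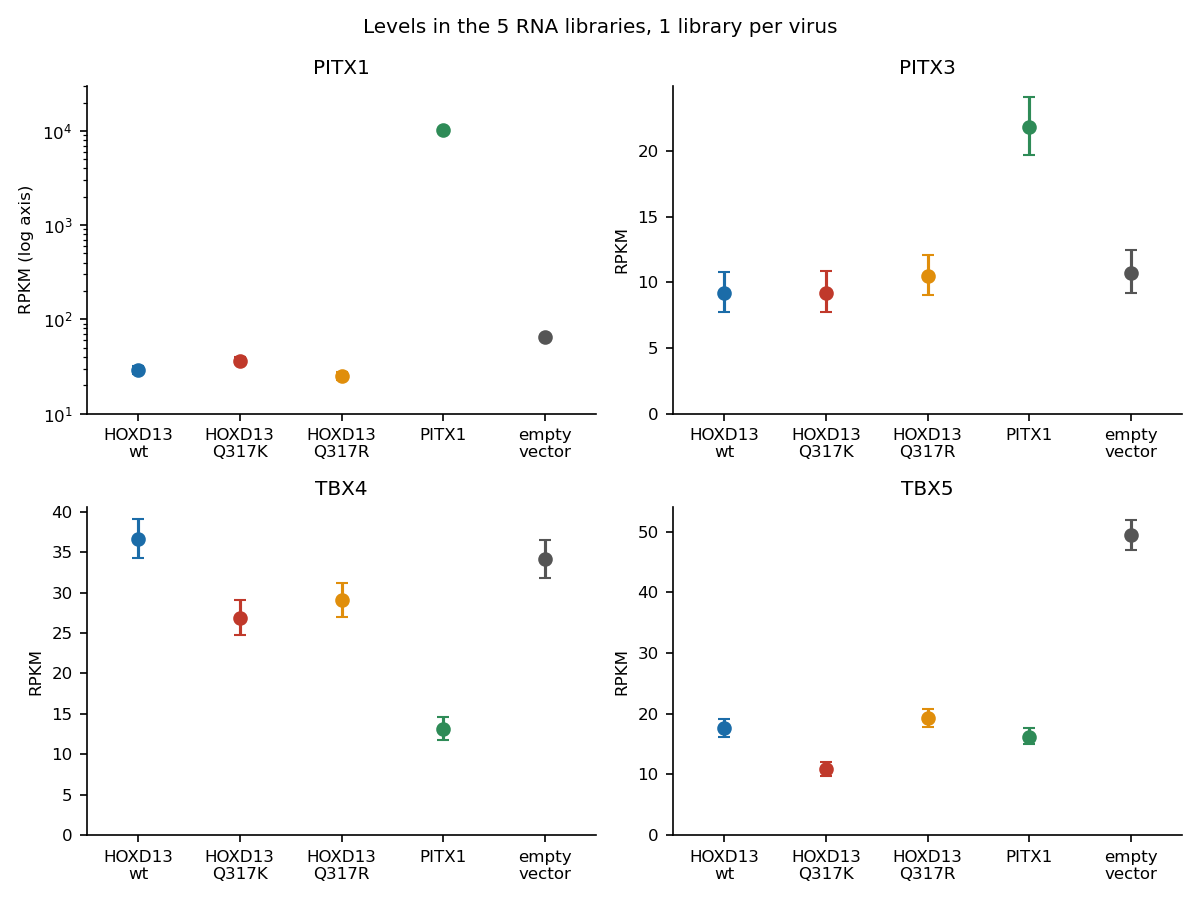
RPKM of PITX1 (log axis), PITX3, TBX4 and TBX5 (linear axes) in the 5 RNA libraries, with 95% counting intervals from the recovered reads and 1 library per group. PITX1 stands at 10233 RPKM in the library of its own virus, PITX3 is highest there at 21.9 RPKM, TBX4 is lowest there at 13.2 RPKM, and TBX5 is highest in the empty vector at 49.4 RPKM.

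TBX4 did not follow TBX5. Its level was 36.7 RPKM with HOXD13 wt, 26.8 RPKM with Q317K, 29.0 RPKM with Q317R, 13.2 RPKM with PITX1 and 34.1 RPKM with the empty vector (gene ENSGALG00000005285, transcript ENSGALT00000008476). The reads behind these levels were 885, 610, 788 and 343 in the factor libraries and 842 in the empty vector library. The PITX1 library was the lowest, and the other 4 lay between 26.8 and 36.7 RPKM. TBX4 was 2.59-fold lower with PITX1 than with the empty vector (2.28 to 2.94), a log2 ratio of RPKM + 1 of -1.31. In the same comparison its other transcripts were 2.53-fold lower (ENSGALT00000008475, 2.21 to 2.89) and 3.01-fold lower (ENSGALT00000039211, 2.15 to 4.28). With HOXD13 wt the ratio to the empty vector was 1.08 (0.977 to 1.18), an interval that includes 1. With Q317K TBX4 was 1.27-fold lower (1.14 to 1.41) and with Q317R 1.17-fold lower (1.06 to 1.30) than with the empty vector. ENSGALT00000008475 was 1.20-fold lower with Q317K (1.08 to 1.35) and 1.07-fold lower with Q317R (0.964 to 1.18). ENSGALT00000039211 was 1.36-fold lower with Q317K (1.04 to 1.79) and 1.27-fold lower with Q317R (0.983 to 1.63). Both of these Q317R intervals include 1.

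HOXD13 wt gave different values for the TBX4 transcripts. ENSGALT00000008475 was 1.30-fold higher with HOXD13 wt than with the empty vector (1.18 to 1.43), at 37.8 and 29.2 RPKM, and ENSGALT00000039211 had a ratio of 0.904 (0.702 to 1.16). The direction of TBX4 with HOXD13 wt therefore depends on the transcript, and all its sizes are small. In the order of TBX4 levels, HOXD13 wt and the empty vector were within counting error of each other, as were Q317R and Q317K.

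**Figure D2:**
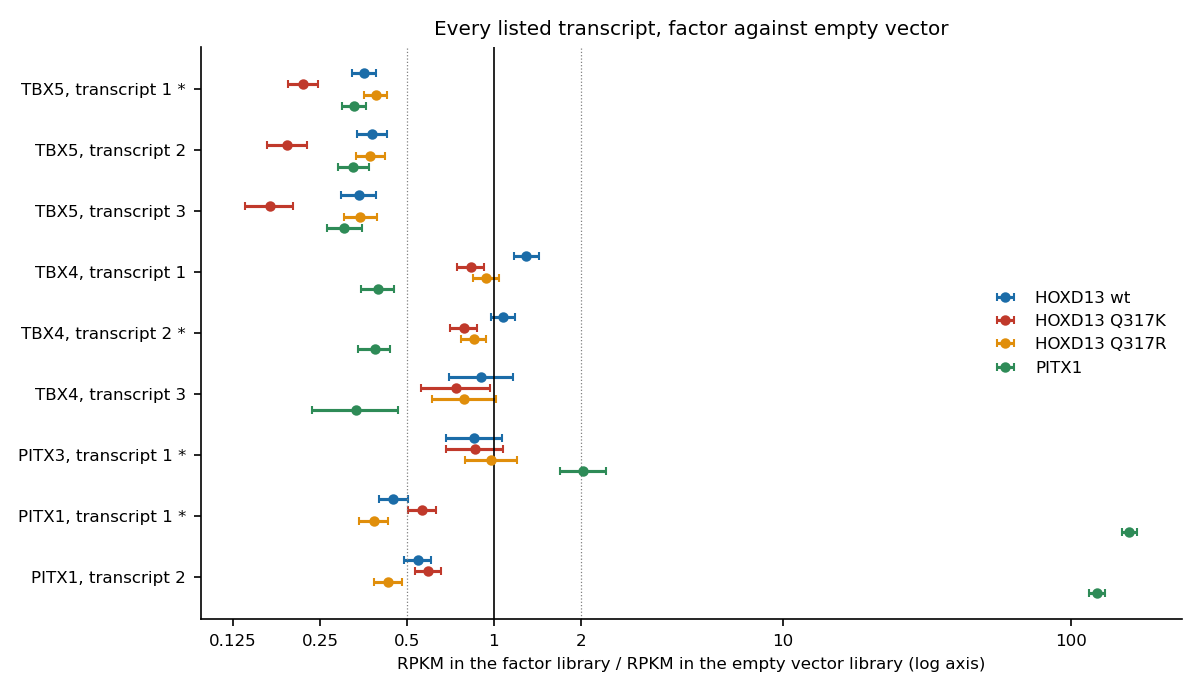
RPKM with each factor over RPKM with the empty vector (log axis) for the 9 transcripts of the 4 genes, with 95% counting intervals; an asterisk marks the transcript used for a gene, and dotted lines mark 2-fold lower and 2-fold higher. All TBX5 transcripts lie below the lower line with all 4 factors, from 2.57-fold to 5.97-fold lower, and all TBX4 transcripts lie below it with PITX1.

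Within a library, the level of TBX4 per length can be set against that of TBX5. The ratio of TBX4 RPKM to TBX5 RPKM was 2.08 with HOXD13 wt (1.87 to 2.32), 2.48 with Q317K (2.17 to 2.84), 1.51 with Q317R (1.36 to 1.67), 0.810 with PITX1 (0.707 to 0.928) and 0.689 with the empty vector (0.634 to 0.750). TBX4 was thus the higher of the pair in the 3 HOXD13 libraries, and TBX5 the higher in the PITX1 and empty vector libraries. TBX5 with Q317K, at 10.8 RPKM, was close to PITX3 outside the PITX1 library, at 9.19 to 10.7 RPKM. TBX4 with PITX1, at 13.2 RPKM, was within the range of FOXE3 of the lens, at 12.3 to 18.1 RPKM. Levels like these do not by themselves show expression. With PITX1, TBX4 and TBX5 were lower than with the empty vector by similar factors, 2.59 and 3.04. The counting intervals of the TBX4 to TBX5 ratio for PITX1 and the empty vector overlap, from 0.707 to 0.750. Overlap of separate intervals does not show that the ratios are equal, and their difference was not tested.

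**Figure D3:**
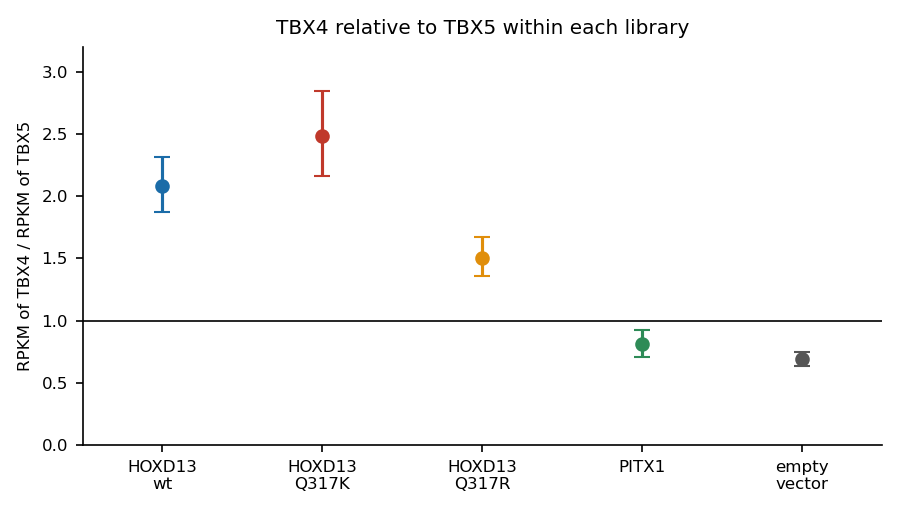
Ratio of TBX4 RPKM to TBX5 RPKM in each of the 5 RNA libraries, with 95% counting intervals and 1 library per group. The ratio lies above 1 in the 3 HOXD13 libraries, up to 2.48 in Q317K, and below 1 in PITX1 (0.810) and the empty vector (0.689).

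PITX1 reads in the library of the PITX1 virus include the virus's own chicken PITX1, and this table cannot separate them from the cells' own transcript. The level was 28.9 RPKM with HOXD13 wt, 36.4 RPKM with Q317K, 24.8 RPKM with Q317R, 10233 RPKM with PITX1 and 64.5 RPKM with the empty vector (gene ENSGALG00000006365, transcript ENSGALT00000009427). The PITX1 library stood 159-fold above the empty vector library (149 to 169), with 164566 reads against 983, the direction its label gives, and says nothing about the cells' own gene. These 164566 reads were 1.02% of that library. In the empty vector library, whose virus carries no PITX1, 93.7% of genes had a lower RPKM than PITX1. That RNA was taken as the cells' own.

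The 3 HOXD13 libraries all had less PITX1 RNA than the empty vector library. PITX1 was 2.23-fold lower with HOXD13 wt (1.99 to 2.50), 1.77-fold lower with Q317K (1.59 to 1.98) and 2.60-fold lower with Q317R (2.32 to 2.93) than with the empty vector. The HOXD13 viruses carry no PITX1, so these values were taken as those of the cells' own transcript. Whether any reads came over from the PITX1 library was not tested. For the longer transcript, ENSGALT00000010289, the differences were smaller: 1.84-fold lower with HOXD13 wt (1.65 to 2.04), 1.69-fold with Q317K (1.52 to 1.87) and 2.33-fold with Q317R (2.08 to 2.60). With that transcript PITX1 is no longer 2-fold lower in HOXD13 wt.

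The balance of the PITX1 transcripts also differed between libraries. The RPKM of ENSGALT00000009427 over that of ENSGALT00000010289 was 1.02 with HOXD13 wt, 1.18 with Q317K, 1.11 with Q317R, 1.61 with PITX1 and 1.24 with the empty vector. The PITX1 library was highest. The insert was not compared with either transcript, and its part in this ratio was not tested. Within each library, PITX1 over TBX4 was 0.789 with HOXD13 wt, 1.36 with Q317K, 0.853 with Q317R and 1.89 with the empty vector, as ratios of RPKM. PITX1 and TBX4 were thus in a different order in HOXD13 wt and Q317R than in Q317K and the empty vector.

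PITX3 was level in 4 libraries, where 46.7% to 51.6% of genes had a lower RPKM, and higher in the PITX1 library. It stood at 9.19 RPKM with HOXD13 wt, 9.22 RPKM with Q317K, 10.5 RPKM with Q317R, 21.9 RPKM with PITX1 and 10.7 RPKM with the empty vector (gene ENSGALG00000005613, transcript ENSGALT00000009008, the only one in the table). The reads were 148, 140, 190 and 380 in the factor libraries and 177 in the empty vector library. Ratios to the empty vector were 0.855 with HOXD13 wt (0.683 to 1.07), 0.859 with Q317K (0.683 to 1.08) and 0.976 with Q317R (0.791 to 1.21), all with intervals that include 1. With PITX1 the level was 2.04-fold higher than with the empty vector (1.70 to 2.45). On the log2 scale of RPKM + 1 this is 0.96, just under the 2-fold line, and with a pseudocount of 0.1 RPKM it is 1.02, just over it.

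PITX1 and PITX3 share the homeodomain, so reads of the viral PITX1 could be counted on the PITX3 row. The PITX3 reads above the level of the empty vector numbered 193 in the PITX1 library, equal to 0.117% of the reads on the PITX1 row. The sources used here do not say how the authors treated reads that match several genes, so the value of PITX3 in the PITX1 library is uncertain, and the part of PITX1 reads in it was not tested. PITX3 stood at 9.19 to 10.7 RPKM in the other 4 libraries. Genes whose known sites are other tissues varied in level over the 5 libraries. MYOD1 of skeletal muscle was at 5.56 to 7.57 RPKM and SOX10 of neural crest and glia at 7.97 to 10.3 RPKM. LHX3 of the pituitary and motor neurons was at 5.42 to 8.99 RPKM. Others stood higher: FOXE3 of the lens was at 12.3 to 18.1 RPKM, the epithelial marker KRT14 at 17.3 to 23.5 RPKM and the muscle marker ACTC1 at 22.0 to 73.5 RPKM. A level like that of PITX3, or one past the filter at 5 RPKM, does not by itself show that a gene was expressed.

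Counted with the rule that a gene is called when RPKM + 1 differs at least 2-fold, HOXD13 wt had 2 of the 4 genes lower than the empty vector (PITX1 and TBX5), in a comparison in which 2.62% of 12840 genes were lower, and none higher, where 2.28% were. Q317K had 1 lower (TBX5), with 2.87% of 12720 genes lower, and none higher, with 2.14%. Q317R had 2 lower (PITX1 and TBX5), with 2.08% of 12842 genes lower, and none higher, with 1.89%. PITX1 had 2 lower (TBX4 and TBX5), with 2.80% of 12698 genes lower, and 1 higher, its own transgene's gene, with 1.97%. The median log2 ratio of the 4 genes was -0.67 in HOXD13 wt, -0.57 in Q317K, -0.77 in Q317R and -0.17 in PITX1, beside -0.03, -0.01, 0.02 and -0.05 over all genes tested. The PITX1 median includes the transgene. The 4 genes were chosen with earlier results of these data known, so neither these counts nor the ranks given for TBX5 are a test.

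Each mutant was also compared with HOXD13 wt, from which it differs in the homeodomain. With 1 library for each form, that change cannot be told apart from a difference between cultures. No member was 2-fold apart between Q317K and HOXD13 wt, a comparison in which 3.01% of 12512 genes were higher and 3.28% lower. TBX5 was 1.63-fold lower with Q317K than with HOXD13 wt (1.42 to 1.87), and TBX4 was 1.37-fold lower (1.23 to 1.52). The other TBX5 transcripts were 1.97-fold (1.64 to 2.36) and 2.03-fold lower (1.64 to 2.53), the last at -0.92 on the log2 scale of RPKM + 1. The other TBX4 transcripts were 1.56-fold (1.40 to 1.73) and 1.23-fold lower (0.928 to 1.62), the last with an interval that includes 1. PITX1 was 1.26-fold higher with Q317K than with HOXD13 wt (1.10 to 1.43), but its longer transcript had a ratio of 1.09 (0.965 to 1.23). PITX3 had a ratio of 1.00 (0.791 to 1.27).

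Q317R also had no member 2-fold apart from HOXD13 wt, with 1.49% of 12646 genes higher and 1.64% lower. TBX5 had a ratio of 1.10 (0.979 to 1.23) and PITX3 of 1.14 (0.916 to 1.42), both with intervals that include 1. TBX4 was 1.26-fold lower with Q317R than with HOXD13 wt (1.15 to 1.39), and PITX1 was 1.17-fold lower (1.02 to 1.34). The other TBX4 transcripts were 1.38-fold (1.26 to 1.52) and 1.14-fold lower (0.881 to 1.49), the last with an interval that includes 1. The longer PITX1 transcript was 1.27-fold lower (1.12 to 1.43). Whether any of these differences exceeds the spread between cultures cannot be said from 1 library each.

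Q317K gives HOXD13 the lysine that PITX factors carry, and the study compared it with PITX1. TBX5 was 1.50-fold lower with Q317K than with PITX1 (1.31 to 1.73), at 10.8 and 16.2 RPKM. TBX4 was 2.04-fold higher with Q317K than with PITX1 (1.78 to 2.33), at 26.8 and 13.2 RPKM, or 0.97 on the log2 scale of RPKM + 1. Against the shared empty vector, TBX5 was thus lower with both factors, while TBX4 was 1.27-fold lower with Q317K and 2.59-fold lower with PITX1. Called lower with Q317K than with PITX1 were 2 members, PITX1 and PITX3, in a comparison in which 1.66% of 12242 genes were lower, and none was called higher, where 1.92% were. The PITX1 difference is that of the transgene.

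Other T-box genes were counted in the same way. Of 14 such genes, 8 were in the table and 7 measured, that is, with at least 5 RPKM in 1 or both libraries. By the transcript used for each gene, none was 2-fold higher than the empty vector with any factor, where 1.89% to 2.28% of all genes tested were. TBX15, which in mouse is a gene of the skeleton and skin, was the 1 that was lower, with Q317K and with PITX1. That is 1 of 7 in comparisons in which 2.87% and 2.80% of all genes tested were lower. A longer transcript of TBX2, ENSGALT00000039210, was also lower with PITX1, by 2.26-fold (1.81 to 2.83). TBX15 stood at 8.97 RPKM with HOXD13 wt, 6.61 RPKM with Q317K, 9.25 RPKM with Q317R, 6.90 RPKM with PITX1 and 16.9 RPKM with the empty vector. It was 2.56-fold lower with Q317K (2.10 to 3.13) and 2.45-fold lower with PITX1 (2.04 to 2.96) than with the empty vector. The medians of the 7 genes, as log2 ratios, were -0.36 in HOXD13 wt, -0.41 in Q317K, -0.45 in Q317R and -0.32 in PITX1, all below those of all genes. This was not particular to T-box genes. The 5 skeletal muscle markers measured had medians of -0.45, -0.38, -0.495 and -0.38 in the same order. The 2 limb mesenchyme markers had -0.11, -0.01, -0.10 and -0.38.

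TBX2 and TBX3, T-box repressors of the limb margins, lie near TBX4 and TBX5 in the genome and had other profiles. TBX2 was at 13.6 RPKM with HOXD13 wt, 27.7 RPKM with Q317K, 9.40 RPKM with Q317R, 8.72 RPKM with PITX1 and 17.0 RPKM with the empty vector. It was the highest of its 5 values with Q317K, 1.63-fold above the empty vector (1.37 to 1.95), where TBX4 was 1.27-fold lower. The other TBX2 transcripts had ratios of 1.20 to 1.91 in that comparison. With Q317R and PITX1, TBX2 was 1.80-fold and 1.94-fold lower than with the empty vector, and TBX4 was 1.17-fold and 2.59-fold lower. TBX3 was at 14.8 RPKM with HOXD13 wt, 16.8 RPKM with Q317K, 15.9 RPKM with Q317R, 36.5 RPKM with PITX1 and 22.7 RPKM with the empty vector. It was 1.61-fold higher with PITX1 than with the empty vector (1.47 to 1.77), where TBX5 was 3.04-fold lower.

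**Figure D4:**
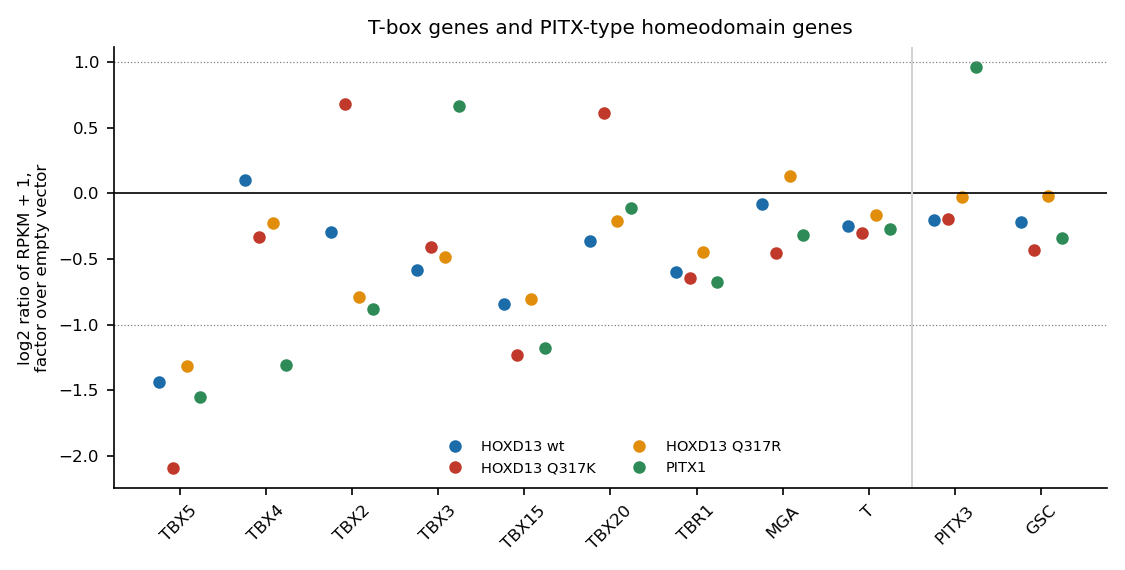
Log2 ratio of RPKM + 1, each factor over the empty vector, for TBX5, TBX4 and the other measured T-box genes, and for PITX3 and GSC; dotted lines mark 2-fold. TBX5 lies below the lower line with all 4 factors, TBX4 with PITX1 only, and TBX15 with Q317K and PITX1; PITX3 with PITX1, at 0.96, lies just under the upper line.

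Neighbours on the chromosome were taken as the 3 nearest protein-coding genes on each side in the order of the RefSeq genes of GRCg7b, which was used for names and order only. Of 24 neighbours, 12 were in the table and 11 measured. By the transcript used for each gene, none was 2-fold apart from the empty vector with any factor. Among all genes tested, 1.89% to 2.28% were higher and 2.08% to 2.87% lower in those comparisons. A longer transcript of TBX2 was 2.26-fold lower with PITX1 than with the empty vector. Beside PITX1, TXNDC15 had 24.1, 24.9, 25.8 and 22.6 RPKM with HOXD13 wt, Q317K, Q317R and PITX1 and 34.6 RPKM with the empty vector, and C5orf24 had 46.3 to 60.5 RPKM over the 5 libraries. Between Q317K and PITX1, TBX2 was called higher and TBX3 lower, where 1.92% of all genes tested were higher and 1.66% lower. The table gives no positions, and the sources used here do not name its genome build.

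Genes that place the limb field and its type were mostly not measured. Of 9 such genes, 4 were in the table, and HAND2, HOXC11 and ISL1 reached 5 RPKM in at least 1 library. HAND2, a factor of the posterior limb bud, was at 21.3 to 28.8 RPKM, HOXC11 at 5.61 to 8.58 RPKM, and ISL1, which acts early in the mouse hindlimb field, at 4.75 to 8.11 RPKM. None of the 3 was 2-fold apart from the empty vector with any factor, where 1.89% to 2.28% of all genes tested were higher and 2.08% to 2.87% lower. HOXC10, a HOXC gene of the hindlimb, was at 3.43 to 4.90 RPKM.

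Limb outgrowth and patterning genes were counted beside the members because TBX4 and TBX5 act through FGF10. Of 28, 16 were in the table, and 13 or 14 were measured in each comparison with the empty vector. FGF10 itself was not found in the table under its symbol, so its level is unknown. The 1 call against the empty vector was LHX9, a LIM factor of the distal mesenchyme, lower with Q317R, where 2.08% of all genes tested were. It was at 21.8 RPKM with HOXD13 wt, 8.76 RPKM with Q317K, 6.15 RPKM with Q317R, 8.73 RPKM with PITX1 and 14.1 RPKM with the empty vector. FGFR2, a receptor of the FGF loop between mesenchyme and ectoderm, was at 48.7 RPKM with HOXD13 wt, 20.8 RPKM with Q317K, 49.6 RPKM with Q317R, 23.96 RPKM with PITX1 and 39.8 RPKM with the empty vector. The low FGFR2 values were those of Q317K and PITX1, both less than 2-fold below the empty vector. GREM1, a BMP antagonist of that loop, was lowest with PITX1, at 10.2 RPKM, against 17.4 RPKM with the empty vector. It was called higher with Q317K than with PITX1, by 2.32-fold (1.88 to 2.86), where 1.92% of all genes tested were. Against HOXD13 wt, FGFR2 was called lower with Q317K, by 2.34-fold (2.16 to 2.55). LHX9 was called lower than with HOXD13 wt in both Q317K and Q317R, where 3.28% and 1.64% of all genes tested were. The median log2 ratios of the list were -0.0015 in HOXD13 wt, -0.17 in Q317K, -0.18 in Q317R and -0.41 in PITX1.

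Genes known with PITX factors in other tissues gave 1 that was 2-fold apart from the empty vector, NR4A2, a nuclear receptor of dopamine neurons. It was at 14.01 RPKM with HOXD13 wt, 13.9 RPKM with Q317K, 57.9 RPKM with Q317R, 30.5 RPKM with PITX1 and 43.7 RPKM with the empty vector. It was 3.12-fold lower with HOXD13 wt and 3.14-fold lower with Q317K than with the empty vector, where 2.62% and 2.87% of all genes tested were lower. NR4A2 was also called higher with Q317R than with HOXD13 wt, where 1.49% of all genes tested were. It was called lower with Q317K than with PITX1, where 1.66% were. Of the 8 genes listed, 4 were in the table and 3 measured; FOXE3 of the lens and LHX3 were not 2-fold apart from the empty vector with any factor. GSC, another bicoid-type homeodomain gene, was at 9.71 to 13.5 RPKM.

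The genes with the nearest profiles over the 5 libraries were sought among 6610 named genes, by the root-mean-square difference of log2 values of RPKM + 1, each centred on its own mean. Nearest to TBX5 was APOLD1, a gene known from endothelium, at a difference of 0.09, with 8.10 RPKM in HOXD13 wt, 4.72 RPKM in Q317K, 8.70 RPKM in Q317R, 6.59 RPKM in PITX1 and 25.9 RPKM in the empty vector. BAIAP2L1 and OSGIN1 followed, at 0.12 and 0.16, and 6 genes lay within 0.2. Nearest to TBX4 was NOV, a matricellular protein of the CCN family, at 0.15, with 92.7, 73.9, 77.4 and 46.9 RPKM in HOXD13 wt, Q317K, Q317R and PITX1 and 99.2 RPKM in the empty vector; DYNLT3 and IRF2BP2 followed, and 2 genes lay within 0.2.

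Nearest to PITX3 were MCF2L2, KIAA1217 and AP1S3, at 0.12 to 0.13, among 28 genes within 0.2. Without the PITX1 library the PITX3 profile was flat, and 3275 genes lay within 0.2 of it, with COQ2, DGKI and CCBE1 nearest. Over the 5 libraries the PITX1 profile spanned 8.63 on the log2 scale and was set by the PITX1 library, which holds the transgene reads. Nearness to it therefore picks genes that are high in that library and says nothing about the cells' own PITX1. No gene came within 0.2 of it. The nearest was the globin HBE, at 0.63, with 7.43 RPKM in HOXD13 wt, 5.08 RPKM in Q317K, 2.80 RPKM in Q317R, 747 RPKM in PITX1 and 6.77 RPKM in the empty vector. RXFP2 and FABP7 followed, at 2.16 and 2.21. Over the 4 libraries other than PITX1, the nearest were PTTG1IP at 0.11, SRPX2 at 0.12 and IGSF10 at 0.14, and 27 genes lay within 0.2.

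Cartilage markers differed in some of the same comparisons. Of 6 in the table, 5 were 2-fold lower than the empty vector with HOXD13 wt, 6 with Q317K, none with Q317R and 6 with PITX1. Among all genes tested, 2.62%, 2.87%, 2.08% and 2.80% were lower in those comparisons, in the same order. The median log2 ratios of the markers were -1.81, -2.93, -0.48 and -2.05. With Q317R the summed level of the 6 was also below that of the empty vector, at 13533 and 18023 RPKM. COL2A1 made up most of both sums, at 11296 and 15370 RPKM. MATN1 was at 135 and 250.1 RPKM, but COL9A1 went the other way, at 805 RPKM with Q317R and 608 RPKM with the empty vector. The part of the cartilage content of the cultures in the values of the 4 genes was not tested in any comparison.

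Markers of other cell types varied in level. The 6 skeletal muscle genes summed to 51.2 RPKM with HOXD13 wt, 105 RPKM with Q317K, 53.0 RPKM with Q317R, 81.9 RPKM with PITX1 and 76.1 RPKM with the empty vector. ACTC1 was the 1 called against the empty vector, higher with Q317K, at 73.5 RPKM against 35.8 RPKM, where 2.14% of all genes tested were higher. The 2 endothelial genes summed to 6.88 to 9.46 RPKM, the 2 epithelial genes to 21.7 to 27.8 RPKM and the 3 nerve and glia genes to 16.9 to 23.1 RPKM over the 5 libraries. Of the 3 red blood cell genes in the table, HBE stood at 747 RPKM with PITX1, against 6.77 RPKM with the empty vector, where 1.97% of all genes tested were called higher. HBE was called lower with Q317R, where 2.08% were. HBAD was at 2.28 to 3.89 RPKM and TAL1 at 4.35 to 7.44 RPKM. No gene in the table was listed at 0 in any library, and not every listed marker was in it. It held 6 of 9 skeletal muscle, 3 of 5 red blood cell, 2 of 4 endothelial, 2 of 6 epithelial and 3 of 5 nerve and glia genes. The levels of the absent markers are unknown. The part of red blood cell RNA in the PITX1 library's values of the members was not tested.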

How the data were processed

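RNA levels were deposited as RPKM for 21998 Ensembl transcripts, in 1 column per library, per the file headers; the sources used here do not name the counting tool, the annotation release or the use of strand. If strand was not used, reads of a gene and of an antisense partner cannot be told apart. Peak lists, for which the submitters' processing notes name MACS2, were not used here. Whole reads, lengths and library totals were recovered from ratios between columns: 100% of rows came out whole within 0.001, and in 3000 simulated rows 98.1% gave the true reads and length. Comparisons used log2(RPKM + 1), one library minus another, over genes with at least 5 RPKM in 1 or both, which understates differences of low genes; fold ratios are of RPKM without a pseudocount. A gene at least 2-fold apart on the log2 scale was called. Groups came from the sample titles. The empty vector column is headed leer, the German word for empty, and was matched to its sample by that meaning. Named were the 4 members, up to 6 genes of each list (those of largest range), measured neighbours and the 3 nearest profiles; HOXC10 was named after its values were seen, and 1 listed gene is not reported here. Members and lists were chosen with earlier results of these data known. Alternatives were pseudocounts of 0.1 and 5, a minimum of 1 RPKM, the longest transcript and other scalings. Python 3.11.15, numpy 2.4.6, scipy 1.17.1 and pandas 2.3.3 were used.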

Additional observations from a re-analysis of the deposited data

How the results depend on the processing

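No paired analysis was possible because each group had 1 library. Of 140 alternative values of the members' log2 ratios, 128 differed from the value in the text by less than counting error, and 12 by more; 5 crossed the 2-fold line. The sign turned in 2, both for PITX3 with Q317K against HOXD13 wt, at 0.005 in the text's setting, -0.0134 with median-of-ratios scaling and -0.0184 with upper-quartile scaling. The longest-transcript setting could not change PITX3, which has 1 transcript, or TBX5, whose transcript in use is its longest. Those unchanged values are among the 128. That setting moved 6 values by more than counting error, all of PITX1 or TBX4. With the longest transcript, PITX1 was at -0.85 with HOXD13 wt against the empty vector, which left 1 member lower there, and at 6.91 with PITX1; TBX4 was at 0.36 with HOXD13 wt, and TBX4 over TBX5 in the empty vector was 0.591. With that transcript, Q317K against HOXD13 wt gave 0.12 for PITX1 and -0.62 for TBX4, and Q317K against PITX1 gave -7.65 for PITX1 and 1 member higher, TBX4. With a pseudocount of 5 RPKM, TBX5 against the empty vector was at -1.27 with HOXD13 wt, -1.78 with Q317K, -1.17 with Q317R and -1.36 with PITX1, TBX4 with PITX1 was at -1.11, and Q317K against PITX1 gave -7.95 for PITX1 and 1 member lower, since PITX3 came to -0.92. With a pseudocount of 0.1 RPKM, 2 members were higher with PITX1 than with the empty vector, PITX3 being the added one, and 1 was higher with Q317K than with PITX1, TBX4.

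Over all genes, a pseudocount of 5 RPKM lowered the counts of calls against the empty vector to 191 higher with HOXD13 wt (293 in the text's setting), 164 higher and 228 lower with Q317K (272 and 365), 144 higher with Q317R (243), and 160 higher and 223 lower with PITX1 (250 and 356). It gave 256 lower for Q317K against HOXD13 wt (410), 118 higher and 135 lower for Q317R against HOXD13 wt (188 and 208), and 139 higher and 122 lower for Q317K against PITX1 (235 and 203). A larger pseudocount draws every ratio toward 0 by construction. Other scalings divided the libraries by 0.969 to 1.03. With 1 library per group, the spread between cultures is unknown; depth limits PITX3 most, at 140 to 380 reads.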
